A study of Mus musculus with 23 samples.

Results

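Txnip and 9 genes of glucose uptake, glycolysis and lactate export were followed in TM4 cells exposed to a phthalate monoester or to candidate replacement plasticizers. The set held 10 of the 20145 genes named on the array, measured by 16 of its 55681 non-control probes. Its members were the glucose transporters Slc2a1 and Slc2a3, the hexokinases Hk1 and Hk2, Pfkl, Pfkfb3, Ldha, the monocarboxylate transporters Slc16a1 and Slc16a3, and Txnip. Probes were assigned by their RefSeq transcript.

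TM4 is an immortalized mouse Sertoli cell line derived from immature testis. In this study TM4 cells received 1% DMSO alone or 100 μM of a compound in 1% DMSO for 48 hr. The compounds were MEHP, the bioactive monoester metabolite of the phthalate plasticizer DEHP, DINCH, a commercial cyclohexane diester, DOM (dioctyl maleate), DOS (dioctyl succinate) and BDB (a butanediol dibenzoate). RNA was hybridized to 23 1-colour arrays on 3 slides, 4 biological replicates per group and 3 for DOS, from which the authors left out a replicate with high background.

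Sertoli cells take up glucose, run it through glycolysis and export the lactate, which feeds the developing germ cells. Slc2a1 and Slc2a3 import glucose, hexokinases trap it by phosphorylation, phosphofructokinase (Pfkl is its liver type subunit) commits it to glycolysis, and Pfkfb3 makes the allosteric activator of that step. Ldha turns pyruvate into lactate, and Slc16a1 and Slc16a3 carry lactate across the membrane. Txnip is an arrestin-domain protein that binds thioredoxin and restrains glucose uptake, and its transcription is known to rise with intracellular glucose metabolites.

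The 3 genes that the results turn on most, Txnip, Hk2 and Ldha, are shown here by their promoter windows, 250 bases before to 50 bases after an annotated start, from RefSeq on GRCm38.p6. Such windows were matched for 9 of the 10 genes (12 windows). Capitals mark the motifs searched on both strands, which were the hypoxia response core ACGTG, the E-box CACGTG, which contains that core, and the paired E-box-like element CACGNGNNNNNCACGNG known from carbohydrate-responsive genes. The windows lie at chr3:96557707-96558006 on the plus strand (Txnip), chr6:82774405-82774704 on the minus strand (Hk2) and chr7:46845554-46845853 on the plus strand (Ldha, 1 of its 2 windows).
Txnip: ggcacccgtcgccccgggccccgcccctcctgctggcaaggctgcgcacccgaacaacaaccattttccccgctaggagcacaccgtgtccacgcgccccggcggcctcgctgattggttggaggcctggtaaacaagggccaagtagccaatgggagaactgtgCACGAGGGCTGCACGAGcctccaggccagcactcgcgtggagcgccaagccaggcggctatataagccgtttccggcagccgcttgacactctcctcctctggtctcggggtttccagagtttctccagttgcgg
Hk2: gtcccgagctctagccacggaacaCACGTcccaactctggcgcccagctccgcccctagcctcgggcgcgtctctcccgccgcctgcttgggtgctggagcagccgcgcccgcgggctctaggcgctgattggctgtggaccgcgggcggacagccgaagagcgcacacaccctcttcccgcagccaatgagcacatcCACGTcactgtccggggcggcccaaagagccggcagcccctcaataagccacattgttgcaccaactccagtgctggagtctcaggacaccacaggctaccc
Ldha: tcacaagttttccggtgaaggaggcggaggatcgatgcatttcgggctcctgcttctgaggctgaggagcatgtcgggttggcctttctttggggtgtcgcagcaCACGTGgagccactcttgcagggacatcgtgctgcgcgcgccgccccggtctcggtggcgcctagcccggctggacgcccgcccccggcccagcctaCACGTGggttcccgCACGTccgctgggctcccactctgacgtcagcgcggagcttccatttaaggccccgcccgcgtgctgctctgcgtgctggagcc

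The Txnip window held the paired element at position -85, counted from the annotated start, and neither other motif. That element was found in 16 of 32851 promoter windows of the same length, or 0.0487%, and in no other window of the 10 genes. The core ACGTG occurred in Hk2 at positions -226 and -52, both on the opposite strand and so printed as CACGT, and Ldha held it at several places, with CACGTG at -145 and -48. ACGTG was present in 19.6% of all windows and CACGTG in 7.15%. Of the 12 windows of the members, 8 held ACGTG and 3 held CACGTG. By gene, 7 of the 9 with a window held ACGTG in at least 1 of their windows and 3 held CACGTG. A match describes letters in the window and was not tested as a binding site.

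Signals are given as log2 of the processed intensity relative to the 75th percentile of the array, so that differences of 1 are 2-fold. Levels of different probes cannot be set against each other. The 75th percentile lay between 204.6 and 350.7 across arrays, 43.4% to 52.2% of spots were well above background, and no spot was saturated. The line matched its label in part. Of the Sertoli cell markers, Dhh, Gata4, Inhbb and Kitl were well above background on all 23 arrays, while Fshr, Wt1 and Cldn11 were so on none, and Amh and Trf on 1. MEHP, DINCH and BDB lay in other positions of the slides than DMSO, so for these 3 compounds position and treatment cannot be told apart, whereas DOM and DOS shared the positions of DMSO. All 5 comparisons with DMSO used the same 4 DMSO arrays, and a low or high DMSO array therefore moved all of them together.

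A gene was called when its brightest probe passed an adjusted p of 0.05 in limma with a change of more than 1.5-fold. All 10 genes were tested in each comparison. MEHP called 1 of the 10 (Txnip, lower), against 1.52% of all genes tested. DINCH called 1 (Pfkl, lower), against 6.96%, and DOM called 2 (Hk2 and Txnip, lower), against 18.5%. The share of members called was thus near that of all genes for DINCH and DOM. No member rose past the threshold with any compound. Without the fold limit, 1 gene passed with MEHP (2.65% of all genes), 2 with DINCH (13.1%) and 5 with DOM (35.5%), and all of these were lower than in DMSO. BDB and DOS each called 0 of the 10 in limma, as they called 0% of all genes. At an unadjusted p below 0.05, 4 of the 10 differed with BDB (16.3% of all genes) and 0 with DOS (6.33%). The median change of the 10 genes was -0.35 with DOM, -0.14 with DINCH, -0.11 with MEHP, -0.07 with BDB and -0.04 with DOS. Over all genes tested the corresponding medians were -0.03, 0.00, -0.01, -0.03 and -0.01.

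**Figure D1:**
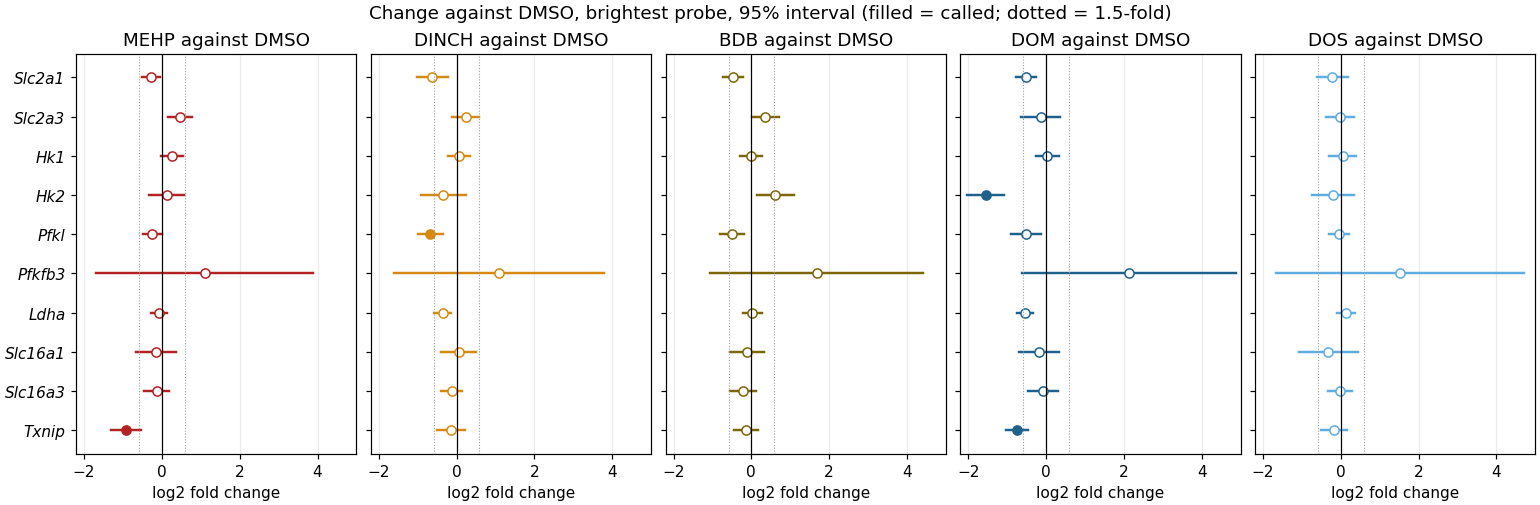
Log2 fold change against DMSO (x axis) of the brightest probe of each of the 10 genes (y axis) for the 5 compounds. Points are limma estimates with 95% intervals, filled where called, and dotted lines mark 1.5-fold. Txnip with MEHP, Pfkl with DINCH, and Hk2 and Txnip with DOM are filled, and the wide Pfkfb3 intervals come with a DMSO array at -4.90.

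Glucose uptake was the first step examined. Slc2a1, the widely expressed basal glucose transporter, read 3.76, 3.42, 3.63 and 3.42 on the DMSO arrays. It read 3.15, 2.86, 3.09 and 3.10 with DOM, 2.41, 3.14, 2.96 and 3.23 with DINCH, and 3.01, 2.98, 3.32 and 3.02 with BDB. MEHP gave 3.17, 3.40, 3.38 and 3.17, and DOS gave 2.99, 3.40 and 3.64. Every DOM, DINCH, BDB and MEHP array lay below the lowest DMSO array, while the DOS arrays overlapped with DMSO. Such a lack of overlap, in either direction, was common over all genes tested. It held for 39.4% with DOM, 24% with DINCH, 14.4% with MEHP, 12% with BDB and 8.12% with DOS. The difference with DOM was -0.51 (SE 0.12, limma adjusted p = 0.0101), or 1.42-fold, which is under the fold limit. With DINCH it was -0.63 (SE 0.18, adjusted p = 0.0561), with BDB -0.47 (SE 0.12, adjusted p = 0.121), with MEHP -0.28 (SE 0.11, adjusted p = 0.24) and with DOS -0.21 (SE 0.17, adjusted p = 0.873). Slc2a3, the high-affinity neuronal-type transporter, differed from DMSO by 0.46 with MEHP (SE 0.14, adjusted p = 0.134) and by -0.14 to 0.36 with the other compounds, and passed in none.

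Hexokinase 2, the inducible and glucose-trapping isoform bound to mitochondria, showed the largest called change of the set. Hk2 read 1.69, 1.06, 1.47 and 0.70 in DMSO and -0.21, -0.64, -0.21 and -0.24 with DOM. The 4 DOM arrays lay below all other arrays. Hk2 fell by 1.55 on the log2 scale with DOM (SE 0.21, limma adjusted p = 0.00102), or 2.93-fold with a 95% interval of 2.1 to 4.08. Within the 3 slides the DOM difference was -2.12, -1.47 and -0.93. Here and below, a difference within a slide rests on only 1 or 2 arrays per group. In the other groups Hk2 read 1.12, 1.21 and 0.78 with DOS, 1.33, 1.36, 1.46 and 1.25 with MEHP, 0.40, 1.29, 1.17 and 0.70 with DINCH, and 1.55, 2.08, 1.77 and 1.94 with BDB. Against DMSO, Hk2 differed by 0.61 with BDB (SE 0.21, adjusted p = 0.225), 0.12 with MEHP, -0.34 with DINCH and -0.19 with DOS, and the arrays overlapped with DMSO in all 4. Hk1, the constitutive isoform, differed from DMSO by between -0.02 and 0.26 on its brightest probe, with adjusted p of 0.359 or more in all 5 comparisons.

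The phosphofructokinase step gave a smaller change. Pfkl read 2.00, 1.97, 2.07 and 2.31 in DMSO and 1.09, 1.36, 1.67 and 1.53 with DINCH, and the groups did not overlap. It fell by 0.67 with DINCH (SE 0.14, limma adjusted p = 0.0201), or 1.6-fold, with within-slide differences of -0.91, -0.66 and -0.71. That call was lost without DINCH replicate 1 (-0.57, under 1.5-fold), DMSO replicate 3 (adjusted p = 0.0593) or DMSO replicate 4 (adjusted p = 0.0516). Pfkl differed by -0.51 with DOM (SE 0.17, adjusted p = 0.0488, 1.42-fold), where 3 arrays read 1.32, 1.62 and 1.33 and replicate 4 read 2.05. Without that replicate it differed by -0.66 (adjusted p = 0.00956) and was called. With BDB it read 1.89, 1.30, 1.57 and 1.59, a difference of -0.50 (SE 0.14, adjusted p = 0.142) without overlap.

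Pfkfb3, the kinase of the allosteric activator, could not be measured well against DMSO. Its brightest probe read 0.23, 1.12 and 1.42 on DMSO replicates 1 to 3 and -4.90, not well above background, on replicate 4. The difference with DOM was 2.13 (SE 1.22, adjusted p = 0.214) with all arrays and 0.67 (SE 0.37, adjusted p = 0.207) without that array. For MEHP and DINCH the sign turned without it, from 1.1 to -0.36 and from 1.09 to -0.37. The second Pfkfb3 probe was well above background on 4 of 23 arrays and was not tested. DOM read 0.88, 1.92, 2.22 and 1.36, MEHP -0.08, 0.69, 0.91 and 0.75, and DINCH -0.02, 0.55, 0.93 and 0.77 on the brightest probe.

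Lactate dehydrogenase A had 3 probes. On the brightest, Ldha read 8.67, 8.63, 8.40 and 8.57 in DMSO, 8.09, 8.05, 7.93 and 8.02 with DOM, and 8.17, 8.27, 8.21 and 8.19 with DINCH. The DOM and the DINCH arrays lay below all DMSO arrays. The difference with DOM was -0.54 (SE 0.10, limma adjusted p = 0.00315), or 1.46-fold, just under the fold limit. The other probes gave -0.70 (SE 0.10, adjusted p = 0.00127) and -0.70 (SE 0.12, adjusted p = 0.00235), and both were called. With DINCH the 3 probes gave -0.36 (adjusted p = 0.0407), -0.66 (adjusted p = 0.00609) and -0.61 (adjusted p = 0.0129), of which the last pair was called. A count by any probe would thus add Ldha for both compounds, giving 3 members for DOM and 2 for DINCH. Counted in the same way, 2459 of 12005 genes tested were called with DOM and 982 of 11913 with DINCH. Quantile normalization lowered the DOM difference on the brightest probe to -0.34, still below DMSO, and normexp gave -0.52. MEHP (-0.08), BDB (0.02) and DOS (0.12) gave adjusted p of 0.707 or more on this probe.

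Lactate export showed no change that passed the test. Slc16a1 differed from DMSO by between -0.32 (DOS, SE 0.33) and 0.05 (DINCH, SE 0.20). Slc16a3, on its brightest probe, differed by between -0.21 (BDB, SE 0.15) and -0.01 (DOS, SE 0.14). The adjusted p was 0.553 or more in all comparisons of these probes with DMSO. Across the 23 arrays Slc16a1 read between -3.89 and -2.36 and this Slc16a3 probe between -2.90 and -2.16, well above background on every array. The second Slc16a3 probe differed by between 0.02 (DOM) and 0.23 (MEHP, adjusted p = 0.267). For DOM the 95% intervals were -0.70 to 0.32 (Slc16a1) and -0.47 to 0.30 (Slc16a3).

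**Figure D2:**
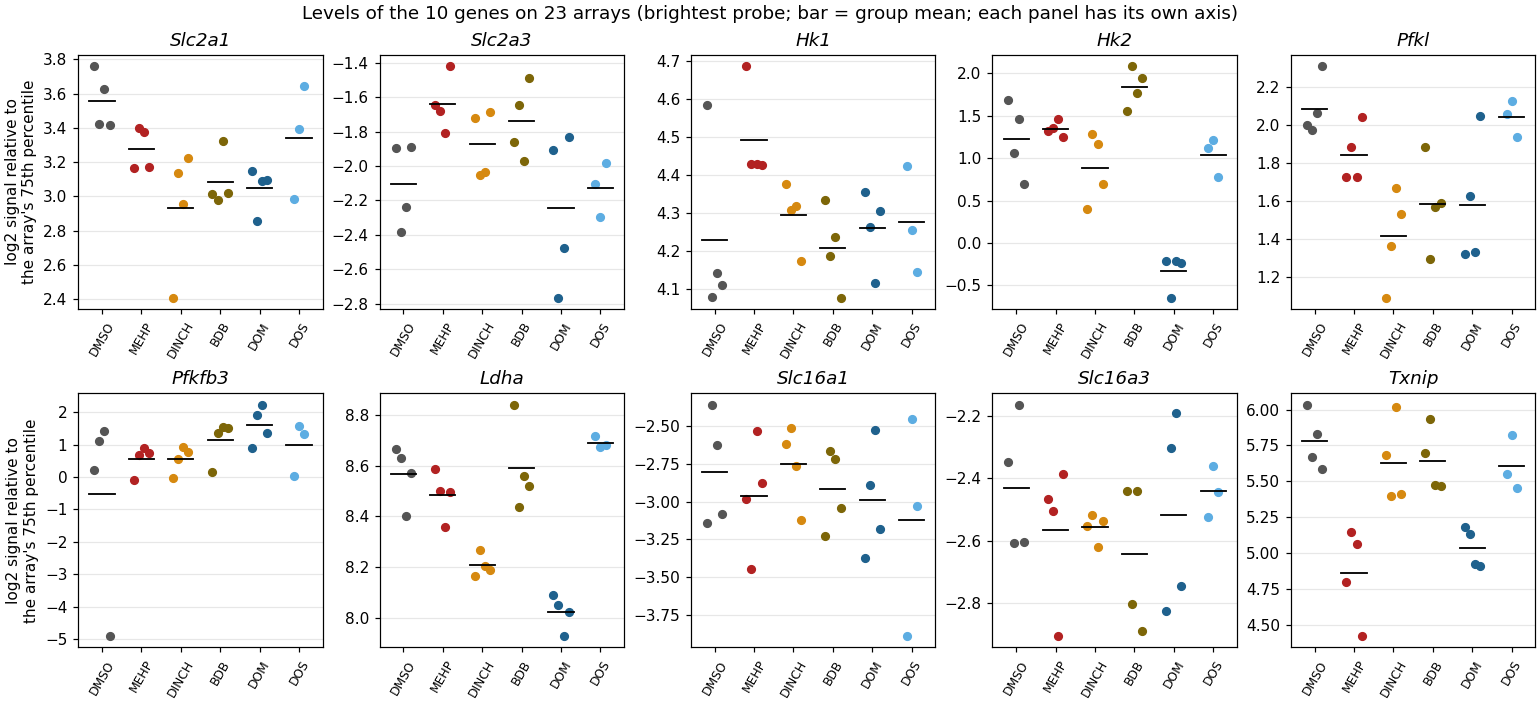
Log2 signal relative to the array's 75th percentile (y axis) of the brightest probe of each gene on each of the 23 arrays, by group (x axis), with a bar at the group mean and a separate axis per panel. The 4 DOM arrays stand apart for Hk2, the MEHP and DOM arrays for Txnip, and the DOM and DINCH arrays for Ldha, while DMSO replicate 4 stands alone for Pfkfb3.

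Txnip was the member called with both MEHP and DOM. Its brightest probe read 6.03, 5.67, 5.83 and 5.59 in DMSO, 4.80, 5.15, 5.06 and 4.42 with MEHP, and 5.18, 5.13, 4.92 and 4.91 with DOM. It read 5.68, 5.40, 6.02 and 5.41 with DINCH, 5.70, 5.93, 5.47 and 5.47 with BDB, and 5.55, 5.83 and 5.45 with DOS. All MEHP and DOM arrays lay below every array of the other 4 groups. Txnip fell by 0.92 with MEHP (SE 0.17, limma adjusted p = 0.0327), or 1.9-fold. It fell by 0.74 under DOM (SE 0.12, adjusted p = 0.00253), or 1.67-fold. On the second probe MEHP gave -0.94 (adjusted p = 0.0328) and DOM gave -0.62 (adjusted p = 0.0195), although here DOM and DMSO arrays overlapped. With DINCH, BDB and DOS the difference was -0.15, -0.14 and -0.17, with adjusted p of 0.605 or more.

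Within slides the MEHP difference of Txnip was -1.06, -0.69 and -1.17 and the DOM difference was -0.88, -0.82 and -0.68. The MEHP call was less stable than the DOM call. Leaving out any of the 8 arrays kept the difference between -1.02 and -0.78 but moved the adjusted p to between 0.0561 and 0.104, whereas the DOM call held without each array in turn. In order of mean level the groups ran MEHP (4.86), DOM (5.04), DOS (5.61), DINCH (5.63), BDB (5.64) and DMSO (5.78). No difference beyond the spread was found between MEHP and DOM (0.18, 95% interval -0.18 to 0.54). The 95% intervals against DMSO were -0.50 to 0.16 for DOS, -0.52 to 0.21 for DINCH and -0.45 to 0.17 for BDB.

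**Figure D3:**
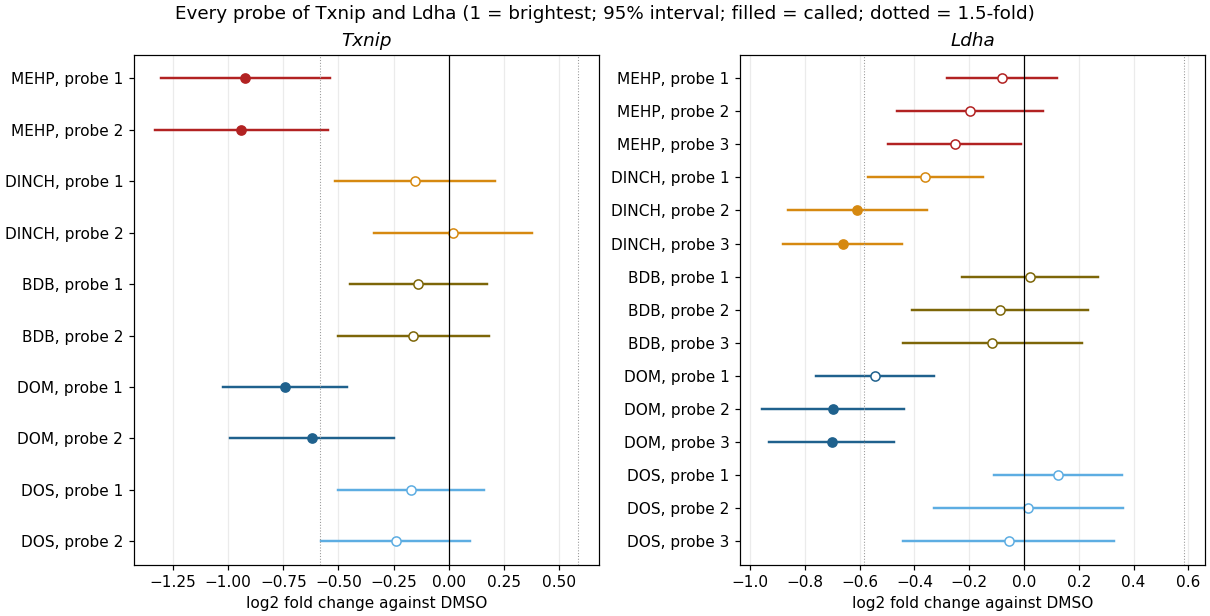
Log2 fold change against DMSO (x axis) with its 95% interval for each probe of Txnip (2) and Ldha (3), by compound (y axis), filled where called. Both Txnip probes are filled for MEHP and DOM, and of the Ldha probes 2 of 3 are filled for DINCH and for DOM.

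The compounds were next set directly against each other at the same dose and time, in 6 pairs, with p adjusted over all probes of the 6 pairs together. DOM and DOS differ in structure by the carbon double bond of the maleate, which the succinate lacks, and they shared slide positions. DOM against DOS called 2 of the 10 genes (13.4% of all genes). Hk2 was lower with DOM by 1.36 (SE 0.16, limma adjusted p = 0.00108), or 2.57-fold with a 95% interval of 2 to 3.3. Ldha was lower by 0.67 (SE 0.10, adjusted p = 0.00285), or 1.59-fold, and the other probes gave -0.65 and -0.71, both called. Under quantile normalization the brightest Ldha probe gave -0.41 (adjusted p = 0.0156) and under normexp -0.51, both under 1.5-fold. Txnip differed by -0.57 (SE 0.13, adjusted p = 0.0204), or 1.49-fold, without overlap between DOM and DOS arrays (as for 38.5% of all genes). With the replicate number as a block, by which these arrays were taken as paired, it was -0.60 (adjusted p = 0.0328) and was called. With slide as a block it was not called. The second Txnip probe gave -0.38 (adjusted p = 0.174). No difference between DOM and DOS passed for Hk1 (95% interval -0.28 to 0.25), Slc16a3 (-0.47 to 0.32), Slc16a1 (-0.62 to 0.88), Slc2a1 (-0.67 to 0.08), Slc2a3 (-0.65 to 0.41), Pfkl (-0.88 to -0.04, adjusted p = 0.121) or Pfkfb3 (-0.34 to 1.58).

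MEHP is a monoester of a benzene dicarboxylic acid, DINCH a diester with a saturated ring and BDB a dibenzoate, and these 3 shared slide positions. MEHP against DINCH called 1 member (3.08% of all genes), MEHP against BDB called 1 (2.95%) and DINCH against BDB called 1 (9.05%). Txnip was lower with MEHP than with DINCH by 0.77 (SE 0.19, limma adjusted p = 0.0213), and the second probe gave -0.96 (adjusted p = 0.00767). It was lower with MEHP than with BDB by 0.79 (SE 0.17, adjusted p = 0.0136), with -0.78 on the second probe (adjusted p = 0.0175). Txnip differed between DINCH and BDB by -0.02, with a 95% interval of -0.38 to 0.35. Hk2 was lower with DINCH than with BDB by 0.95 (SE 0.20, adjusted p = 0.011), although neither compound was called against DMSO for this gene. Ldha was lower with DINCH than with BDB by 0.38 (SE 0.11, adjusted p = 0.0341), which is under 1.5-fold.

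DOM was also set against MEHP and DINCH, which lay in other slide positions. DOM against MEHP called 2 members (16.7% of all genes) and DOM against DINCH called 3 (19.8%). Hk2 was lower with DOM than with MEHP by 1.67 (SE 0.12, limma adjusted p = 0.000141), or 3.19-fold, and lower than with DINCH by 1.21 (SE 0.20, adjusted p = 0.0035). Ldha was lower with DOM than with MEHP by 0.46 (SE 0.08, adjusted p = 0.00587), under 1.5-fold, and differed from DINCH by -0.18 (95% interval -0.39 to 0.03). Pfkfb3 was higher with DOM than with MEHP by 1.03 (SE 0.31, adjusted p = 0.0495) and than with DINCH by 1.04 (SE 0.30, adjusted p = 0.037), though arrays overlapped in both. The first of these passed so narrowly that 22 of 34 alternative settings lost it, and 9 of 34 lost the second. Txnip was lower with DOM than with DINCH by 0.59 (SE 0.15, adjusted p = 0.0265), a call that 10 of 34 settings lost.
With the replicate block, Pfkfb3 was also called lower with DINCH than with BDB (-0.59, adjusted p = 0.021) and Slc2a3 lower with DOM than with MEHP (-0.61, adjusted p = 0.0359).

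**Figure D4:**
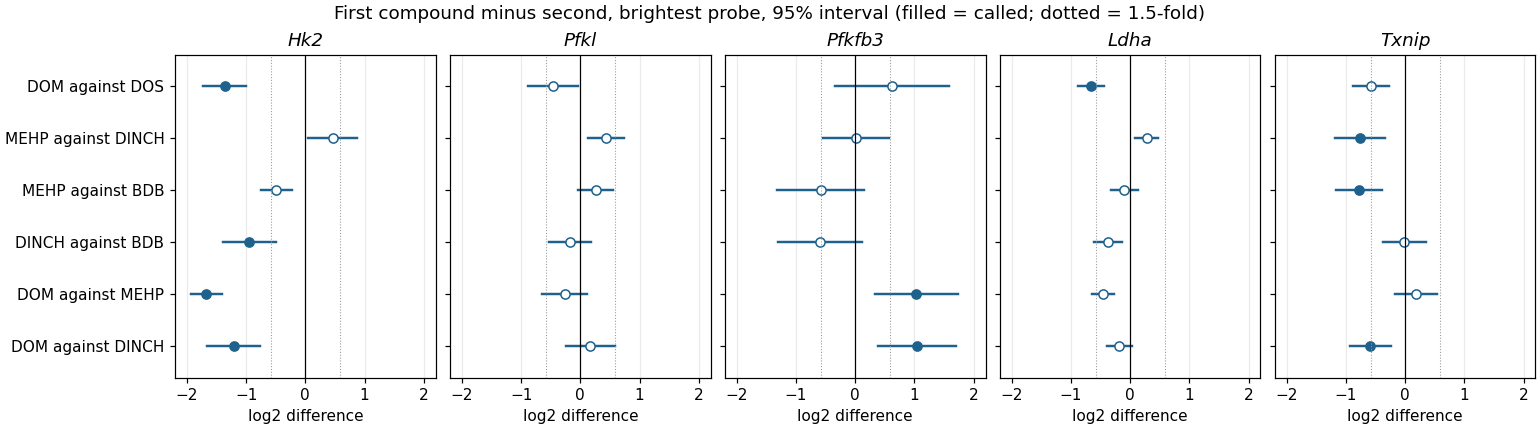
Log2 difference between compounds (x axis, first minus second) with its 95% interval for 6 pairs (y axis) and the genes Hk2, Pfkl, Pfkfb3, Ldha and Txnip on their brightest probe, filled where called. All 3 DOM pairs are filled and below 0 for Hk2, and both MEHP pairs with DINCH and BDB are filled and below 0 for Txnip.

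The enzymes around the 10 genes were counted from fixed lists. Of 29 other glycolytic enzymes, 23 were tested with DOM, and 2 were called higher and 5 lower, with a median of -0.20. Over all genes DOM called 8.78% higher and 9.74% lower. The lower ones included Pgk1, the first ATP-forming step (-0.90, SE 0.12, limma adjusted p = 0.000979), Pfkp, the platelet type phosphofructokinase (-0.95, adjusted p = 0.00118), and Aldoc, a brain type aldolase (-1.25, adjusted p = 0.000361). Ldhc, the testis isoform, was well above background on 0 of 4 DOM arrays, and a bound of at least 1.72-fold lower was set for it (adjusted p = 0.00163). It entered the test only through the DMSO arrays, which favours a lower call. Pfkfb4 (0.98, adjusted p = 0.00137) and Pfkfb2 (0.83, adjusted p = 0.0118), relatives of Pfkfb3, were higher. DINCH called 2 of 23 higher (Eno2, 0.70, adjusted p = 0.0319, and Pfkfb1, 0.64, adjusted p = 0.0487), against 3.79% of all genes. MEHP, BDB and DOS called 0.

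Among relatives and partners of Txnip, 12 of 15 were tested and only DOM called any, 3 of the 12 against 18.5% of all genes. The arrestin-domain genes moved in opposite directions. Arrdc4, the closest relative of Txnip in regulation by glucose, fell by 1.36 (SE 0.29, limma adjusted p = 0.00791) and was well above background on 1 of 4 DOM arrays. It entered the test only through the DMSO arrays, where it was higher, and such a filter favours a lower call. Arrdc3 rose by 3.18 (SE 0.23, adjusted p = 0.00014) and Arrdc2 by 0.92 (SE 0.09, adjusted p = 0.000358). With MEHP, Arrdc4 differed by -0.75 (SE 0.36, adjusted p = 0.343) and Arrdc3 by 0.74 (SE 0.26, adjusted p = 0.206). The glucose-sensing factors Mlx (0.30), Mlxip (0.31) and Mlxipl (-0.50) did not pass with DOM, with adjusted p of 0.0567 or more.

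Of 23 genes of the hypoxia-inducible factor pathway, whose targets include several glycolytic genes, 20 were tested. DOM called 0 higher and 4 lower, DINCH 2 lower and MEHP 1 lower, while BDB and DOS called 0. Over all genes 9.74%, 3.16% and 0.494% were called lower with DOM, DINCH and MEHP. Ankrd37, a hypoxia-inducible target, was lower with DINCH (-1.58, SE 0.19, limma adjusted p = 0.00365), MEHP (-0.83, adjusted p = 0.0173) and DOM (-0.76, adjusted p = 0.00282). With BDB it differed by -0.83 (SE 0.11, adjusted p = 0.0695), without overlap with DMSO. Ero1a, an oxidase of the endoplasmic reticulum, was lower with DOM (-1.09, adjusted p = 0.00179) and DINCH (-0.78, adjusted p = 0.0383). Car12, a carbonic anhydrase (-1.07, adjusted p = 0.00193), and Ndrg1 (-0.92, adjusted p = 0.00353) were lower with DOM. The median over the 20 genes was -0.07 with DOM, -0.18 with DINCH, -0.16 with BDB, -0.12 with MEHP and -0.03 with DOS.

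Of 18 genes of mitochondrial pyruvate handling, 17 were tested. MEHP called 1 of them (1.52% of all genes), DINCH 3 (6.96%) and DOM 3 (18.5%). Pdk4, a kinase that shuts pyruvate dehydrogenase, was higher with MEHP (3.61, SE 0.08, limma adjusted p = 1.58e-07), DOM (3.46, SE 0.23, adjusted p = 0.00011) and DINCH (1.2, SE 0.22, adjusted p = 0.013). With DOS it differed by 1.02 (SE 0.12, adjusted p = 0.341), without overlap with DMSO. Pdk2 was higher with DOM (1.08, adjusted p = 0.00563), and the opposing phosphatase Pdp2 was higher with DOM (0.64, adjusted p = 0.00459) and DINCH (0.59, adjusted p = 0.0426). Pdhx, a subunit of the complex, was lower with DINCH (-0.64, adjusted p = 0.0314). In the pentose phosphate and glycogen list, 13 of 14 genes were tested and only DOM called any, 3 of the 13 against 18.5% of all genes. Pgd, the NADPH-forming step after G6pdx, rose by 1.39 (adjusted p = 0.000127), Gbe1, the glycogen branching enzyme, rose by 1.13 (adjusted p = 0.000579), and Rpia fell by 0.96 (adjusted p = 0.00111). Of 15 other sugar and monocarboxylate transporters, 7 were tested with DOM and 2 were called higher (8.78% of all genes). They were Slc2a6 (1.03, adjusted p = 0.00369) and Slc2a8 (0.77, adjusted p = 0.00166). DINCH called Slc2a8 higher (0.61, adjusted p = 0.00627), 1 of 6 tested (3.79% of all genes). BDB and DOS called 0 genes of any of these lists.

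**Figure D5:**
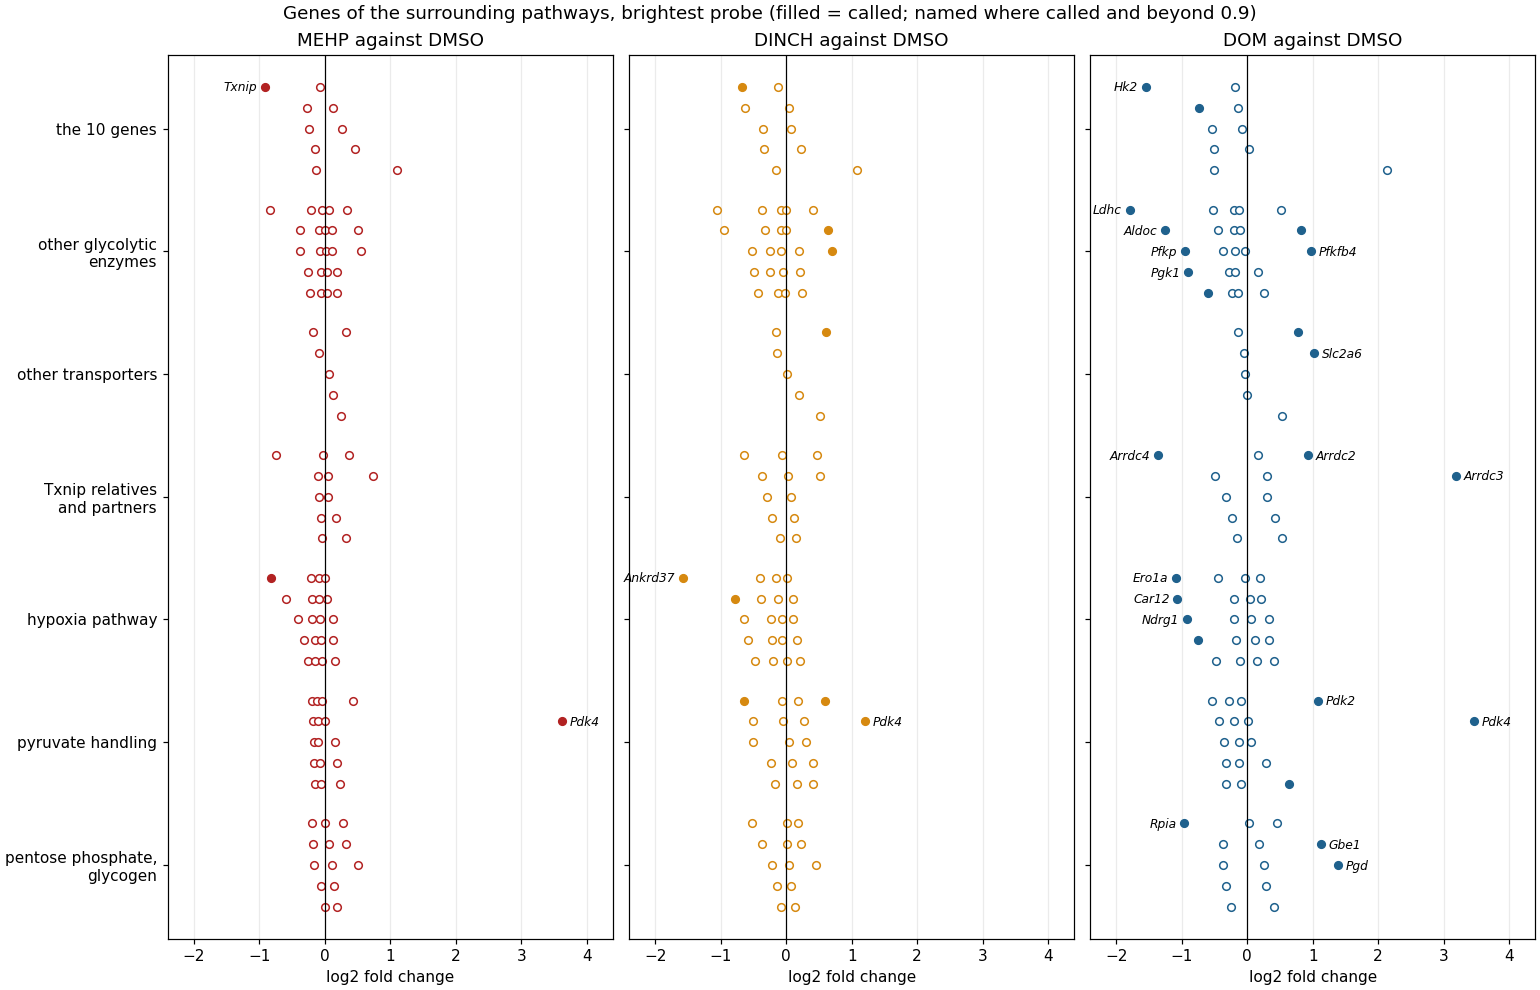
Log2 fold change against DMSO (x axis) of the tested genes of each list (y axis) for MEHP, DINCH and DOM, each point being the brightest probe of a gene, filled where called and named where called and beyond 0.9. With DOM, called genes lie on both sides of 0 among the glycolytic enzymes, the Txnip relatives and the pentose phosphate and glycogen enzymes, and Arrdc3 and Pdk4 reach above 3.

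Across the 23 arrays, the genes whose level was most like that of Txnip, among 12165 compared by Pearson correlation of their brightest probes, were Vsx1 (0.74), Gvin1 (0.74), Spon2 (0.71), Arpc5l (0.70) and B4galnt2 (0.69). Of the other members, Hk2 (0.39) and Ldha (0.33) came closest, and Hk1 (-0.26) was the most opposed. The arrays share groups and slides, so these values only describe the table. Of the Sertoli cell markers, 7 were tested against DMSO for DOM, and Inhbb rose by 1.61 and Sox9, well above background on 2 of 4 DOM arrays, fell by 0.92, while with DINCH Dhh rose by 1.09. Sox9 entered the DOM test only through the DMSO arrays, which favours a lower call. Of the other markers with a named probe, some were well above background on all arrays. These were 1 of 5 Leydig cell markers, 1 of 8 germ cell markers, 3 of 5 peritubular or fibroblast markers and 1 of 3 macrophage markers. Insl3 (Leydig) and Cd68 (macrophage) had no named probe. Among all tested markers of these 4 cell types, Pdgfra rose by 0.86 with DOM, Ldhc was lower as given above, and no other was called with any compound. The part of such shifts in the results above was not tested. Fewer cells with a transcript and less transcript per cell cannot be told apart in these bulk samples.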

How the data were processed

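Total RNA was labelled with Cy3 and hybridized to Agilent SurePrint mouse arrays. The authors extracted intensities with Feature Extraction 11.5.1.1, which subtracted background and marked outlier spots, and deposited them as linear intensity values, not scaled between arrays. A processed matrix in log2 units, also deposited by the authors, was scaled by percentile shift with a median baseline. Its columns correlated with the matching arrays at 0.9996 or more, and it served as an alternative.

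Here log2 of the processed intensity, floored at 1, was set relative to each array's 75th percentile. Spots marked as outliers were dropped before averaging by probe where the probe had an unmarked spot on that array. A probe whose spots were all marked on an array, as with a probe of a single spot, kept its marked value there. The RefSeq accession named 26582 probes. The brightest probe stands for a gene. To be tested, a probe had to exceed the array's 20th percentile and the background in every replicate of at least 1 group. Each comparison was fitted on its own groups with limma 3.58.1 in R 4.3.3, with Benjamini-Hochberg adjustment over all probes tested. The fit was tested on simulated data.

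The members and lists were chosen with earlier results of these data known. The genes named are the 10 members, at most 5 higher and 5 lower called genes per list and compound that do not overlap with DMSO, the 5 genes most like Txnip, and the markers, of which some items are not reported here. Mlx, Mlxip, Mlxipl and the uncalled values of listed genes were added after their values were seen. Replicate numbers were taken as pairing arrays where every pair's deviations from the group means correlated above 0.1, over 21549 probes detected on all arrays. This held for DINCH, BDB and DOS against DMSO, for DOM against DOS and MEHP, and for DINCH against BDB. The lowest value for DOM against DOS was 0.117. The labels state no pairing, and arrays of the same replicate number often shared a slide. Whether the slide gave these correlations was not tested. Alternatives were quantile and normexp scaling, 2 other filters, slide and replicate blocks, a joint fit, a variance trend, kept outlier spots, brightest probes alone, the deposited matrix, and leaving out each array.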

Additional observations from a re-analysis of the deposited data

Results flagged for a closer look

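In 5 of 50 combinations of gene and group with 4 arrays, the gap of 1 array to its nearest neighbour, relative to the range of the group, exceeded Dixon's 95% critical value, where chance alone would mark about 1 in 20. Hk2 in DOM replicate 2 read -0.642, below the other DOM arrays. Slc2a1 in BDB replicate 3 read 3.321, nearest to the DMSO arrays, and Pfkfb3 in BDB replicate 1 read 0.165. Hk1 read 4.584 in DMSO replicate 1 and 4.685 in MEHP replicate 1, both above the other arrays of their groups. The causes were not tested. The Pfkfb3 value of DMSO replicate 4 (-4.90), given above, did not exceed that limit.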

How the results depend on the processing

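Across 34 alternative settings, none turned the direction of a called difference of the 10 genes. Hk2 and Txnip stayed called for DOM against DMSO in all of them, as did Hk2 for DOM against DOS, MEHP and DINCH. Some of these settings could not change a given call. Leaving out an array from outside a comparison with DMSO could not affect it, since it was fitted on its own groups. Leaving out a DMSO array likewise could not affect a compound pair. Keeping outlier spots could alter only probes with both marked and unmarked spots on an array. It changed 0 of 110 calls or signs and says little about robustness. The call of Txnip with MEHP was lost in 10 settings, and that of Pfkl with DINCH in 6. Uncalled values changed sign in up to 14 of 110 cases (normexp), and those of Pfkfb3 with MEHP and DINCH did so without DMSO replicate 4, as given above. The median of all genes moved by at most 0.053 under another scaling.

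Of the 10 genes, 0 were called with MEHP and 0 with DINCH without the filter on dim probes or when detection on 1 array sufficed. Both settings let more dim probes into the fit and into the adjustment. With DINCH, 2 were called in a joint fit of all 6 groups and 2 with a variance trend. Leaving out single arrays gave 0 to 1 for MEHP, 0 to 1 for DINCH and 2 to 3 for DOM. Counting a gene when any of its probes was called, unlike the shares above, which rest on the brightest probe, the counts over all genes were 200 (MEHP), 982 (DINCH), 2459 (DOM), 0 (BDB), 0 (DOS), 1805 (DOM against DOS), 422 (MEHP against DINCH), 392 (MEHP against BDB), 1202 (DINCH against BDB) and 2678 (DOM against DINCH). Normexp gave 113, 593, 1625, 36 and 2 for the 5 compounds in that order, 214 for MEHP against DINCH, 190 for MEHP against BDB and 679 for DINCH against BDB. Without the filter there were 3 (MEHP), 97 (DINCH), 569 (DOM against DOS), 173 (MEHP against DINCH), 175 (MEHP against BDB), 591 (DINCH against BDB) and 1486 (DOM against DINCH). Detection on 1 array gave 98 (MEHP) and 608 (DINCH). BDB had 95 with slide as a block, 118 in the joint fit and 80 with a variance trend. Leaving out single arrays gave 83 (without MEHP replicate 4) to 237 for MEHP, 570 (without DMSO replicate 3) to 1054 for DINCH and 0 to 8 (without DOS replicate 3) for DOS. The causes were not tested.

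With the replicate block, MEHP, DINCH and DOM called 263, 1124 and 2550 genes against DMSO, and 1, 1 and 2 of the 10. The rule for pairing was met here for DINCH only. The lowest correlation of a pair with DMSO was -0.158 for MEHP and 0.06 for DOM. The block added the calls given above for Txnip, Pfkfb3 and Slc2a3 between compounds and changed no other call of the 10 genes. The number of arrays limits the precision of every value.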
